A study of Mus musculus with 5 samples.

Results

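The 85 cytosolic ribosomal protein genes counted in whole-lung RNA of female wild-type BALB/c mice are described here. A gene was a member when its symbol begins with Rpl or Rps followed by a digit, or is Rpsa. Pseudogene rows marked -ps and the Rps6k kinases were left out. These symbols gave 85 of the 23183 rows of the count files, 50 for the large ribosomal subunit (Rpl) and 35 for the small one (Rps and Rpsa). The rule reads names only and uses no measured value. It also takes in 9 symbols with a paralog suffix or of another protein (Rpl3l, Rpl7l1, Rpl10l, Rpl22l1, Rpl36al, Rpl39l, Rps4l, Rps27l and Rps19bp1, which encodes a binding partner of Rps19). In the GENCODE annotation 83 members are protein-coding, while Rpl37rt and Rps4l are transcribed processed pseudogenes. The members lie on 19 chromosomes.

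The cytosolic ribosome is built from ribosomal RNA and one copy of most of its proteins, so cells hold the messages of these proteins at similar high levels. Many of the messages begin with a cytosine and a run of pyrimidines, the 5′ terminal oligopyrimidine or TOP motif, through which mTOR signalling and LARP1 set their translation and stability. Their messages are short, and their genes have left many near-identical retrocopies in the genome, which matters for how reads are assigned. In lung the demand for ribosomes is high in cells that grow, divide or secrete protein, among them plasma cells and secretory epithelium.

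The 5 groups had 1 library each. Control mice had no treatment. PM10 mice were given inhalable particulate matter into the nose 4 times over 2 weeks. PM10/OVA mice received the same particles and ovalbumin, a protein allergen, first by injection into the peritoneum and later through the nose. PM10/OVA/CPX mice had in addition 6 injections of a chitinase-1 inhibitor, abbreviated CPX, over 3 weeks, and PM10/OVA/Dex mice 3 injections of dexamethasone, a synthetic glucocorticoid, in the last week. The mice were killed 2 days after the last challenge. Age, doses, any vehicle and the pooling of animals within a library were not given in the sources used here. By its title the series concerns particle-driven airway inflammation and fibrosis and their regulation through chitinase-1. With 1 library per group no difference has a replicate check, no test between conditions was possible and no p-value was computed, so every difference below is one between libraries. Intervals are 95% intervals that cover counting error only.

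Library totals ran from 11993222 to 16929068 counts, so that 1 count was worth 0.0577 to 0.0841 CPM (counts per a fixed library total, scaled with TMM factors, which trim extreme genes). A gene was called measured at a mean of at least 1 CPM, which left 14305 genes and 82 of the 85 members, 47 of the large and 35 of the small subunit. A log2 ratio was taken on CPM + 1, which understates differences of low genes. Folds of single genes are ratios of CPM.

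To show how the members begin, the 60 bases around the annotated start (40 before and 20 from the start on) are given for 7 of them, read from RefSeq promoters on GRCm38.p6. Rps6 is shown as the member whose protein is the classic substrate of the S6 kinases. Rps2, Rpsa, Rpl41 and Rpl22l1 are shown because they lead differences described below, and Rps27 with Rps27rt because their transcripts are near-identical. Capitals mark a C followed by at least 5 more C or T that begins within 10 bases of the annotated start.
Rps6 (chr4:86857348-86857407, minus strand): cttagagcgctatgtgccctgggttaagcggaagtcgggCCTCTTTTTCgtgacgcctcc
Rps2 (chr17:24720023-24720082, plus strand): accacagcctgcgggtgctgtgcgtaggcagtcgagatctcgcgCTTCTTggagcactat
Rpsa (chr9:120127726-120127785, plus strand): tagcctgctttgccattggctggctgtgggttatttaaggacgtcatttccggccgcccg
Rpl41 (chr10:128549149-128549208, minus strand): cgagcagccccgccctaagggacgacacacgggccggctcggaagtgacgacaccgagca
Rpl22l1 (chr3:28805468-28805527, plus strand): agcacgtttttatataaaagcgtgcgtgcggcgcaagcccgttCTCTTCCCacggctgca
Rps27 (chr3:90213629-90213688, minus strand): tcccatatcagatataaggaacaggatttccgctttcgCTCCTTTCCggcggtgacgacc
Rps27rt (chr9:114982720-114982779, minus strand): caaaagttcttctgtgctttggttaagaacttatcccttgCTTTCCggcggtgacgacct
The Rps27 and Rps27rt windows share the stretch ctttccggcggtgacgacc and differ upstream of it. Rpsa and Rpl41 have no such run at the annotated start. In GENCODE both genes begin upstream of the window shown. A run at a start other than the RefSeq one would be missed, here and in the counts below.

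Of the 85 members, 65 matched a RefSeq promoter by symbol. A pyrimidine run as defined above stood near the start in 31 of the 65, or 47.7%, against 19.2% of all 27025 promoters searched. Motifs known from ribosomal protein promoters were also searched over 300 bases (250 before and 50 after the start) on both strands. The letters CCGGAAG, a form of the ETS-factor site, were found in 24 of 65 (36.9%, against 9.12% of all), and AAGATGG, a core of the YY1 site, in 9 of 65 (13.8%, against 6.48%). The sequences were counted separately, and a pyrimidine run can overlap the other-strand form of either. A match is a description of letters and not of a bound site.

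The members were among the abundant transcripts of the lung. A mean of at least 100 CPM was reached by 72 of the 85 and by 2244 genes in all. Per kilobase of transcript, which allows levels of different genes to be compared, the highest were Rps27rt at 2058 mean CPM per kb, Rpl41 at 1808, Rps29 at 1470 and Rps15 at 1339. Rpl41 encodes a very short basic peptide of the large subunit, Rps29 a zinc-binding small-subunit protein, and Rps15 a protein of the small-subunit head. The lowest were Rpl10l at 0, Rpl39l at 0.13, Rpl3l at 0.60 and Rpl37rt at 1.70 mean CPM per kb.

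The 3 members that did not count as measured are tissue-restricted paralogs. Rpl10l, the testis paralog of Rpl10, had 0 counts in all 5 libraries, where 3 counts, the limit that a count of 0 allows, are worth 0.173 to 0.252 CPM. Rpl39l, also known from testis, had 0, 1, 2, 1 and 3 counts in the 5 libraries, taken in the order in which the groups were introduced (control first, Dex last), which holds for every list of 5 values below. Rpl3l, the heart and skeletal muscle paralog of Rpl3, had 20, 7, 9, 12 and 10 counts. Its ratio of PM10 to control was 0.503 (0.180 to 1.24), so no difference was detectable at this depth. The heart-muscle marker list stood at summed levels of 3510, 749, 322, 281 and 726 CPM in these libraries.

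The share of all gene counts that fell in the 85 members was 3.60% in control (exact binomial interval 3.59 to 3.61), 3.58% in PM10 (3.57 to 3.59), 4.36% in PM10/OVA (4.35 to 4.37), 5.17% in PM10/OVA/CPX (5.16 to 5.19) and 4.24% in PM10/OVA/Dex (4.23 to 4.25). Control and PM10 were thus nearly alike, PM10/OVA and PM10/OVA/Dex lay above them, and PM10/OVA/CPX was the highest of the 5. Large-subunit members took 1.97, 1.96, 2.35, 2.77 and 2.29% of all counts and small-subunit members 1.63, 1.62, 2.01, 2.40 and 1.95%. The same order of libraries held in both subunits. The balance between them moved little, since large-subunit members made up 54.8, 54.8, 53.8, 53.6 and 54.1% of the member counts. In a bulk lung sample, fewer cells of a type and less RNA per cell cannot be told apart, so these shares do not say which cells the counts came from.

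**Figure D1:**
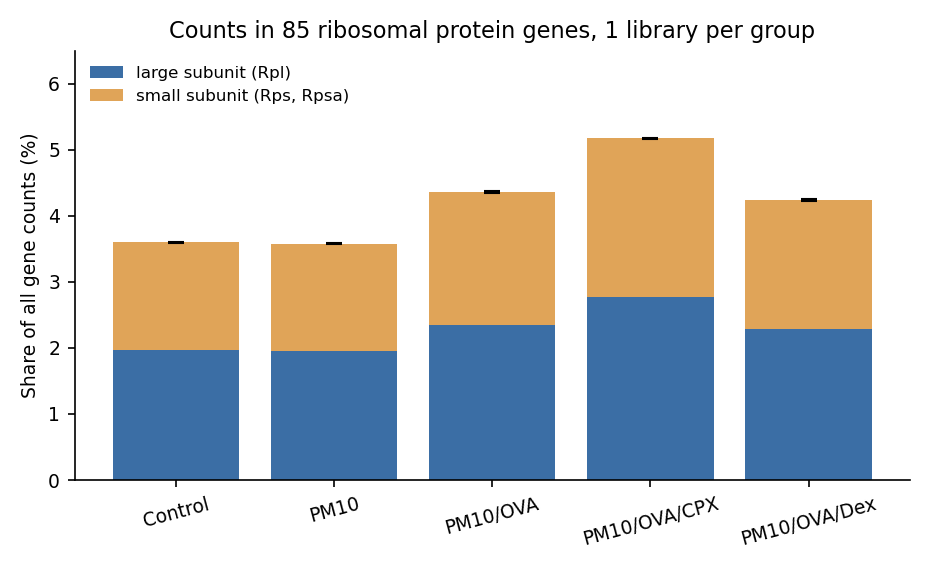
Share of all gene counts (%) in the 85 ribosomal protein genes in each of the 5 libraries, stacked by large and small subunit, with exact 95% binomial intervals of the whole share (counting error only). The share was 3.60% in control, 3.58% in PM10 and 5.17% in PM10/OVA/CPX, the tallest bar.

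Member by member, 73 of the 82 measured genes were at their highest in the PM10/OVA/CPX library, where 20.8% of all 14305 measured genes had theirs. In PM10/OVA 7 were highest (Rpl7a, Rpl7l1, Rpl26, Rpl37rt, Rps2, Rps4l and Rpsa; 19.9% of all genes) and in PM10/OVA/Dex 2 (Rpl30 and Rps19bp1; 16.4%). None was highest in control or PM10, where 24.6 and 18.3% of all genes were. The lowest level was in control for 46 members (26.3% of all genes), in PM10 for 34 (18.4%) and in PM10/OVA/Dex for Rps27 and Rps4l (17.6%). Rps27 had only 26 counts in PM10/OVA/Dex. Rps6 shows the common pattern at 634, 651, 794, 881 and 750 CPM, and Rpl13a, a large-subunit protein also known from control of inflammatory messages, at 722, 715, 865, 1139 and 890 CPM.

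**Figure D2:**
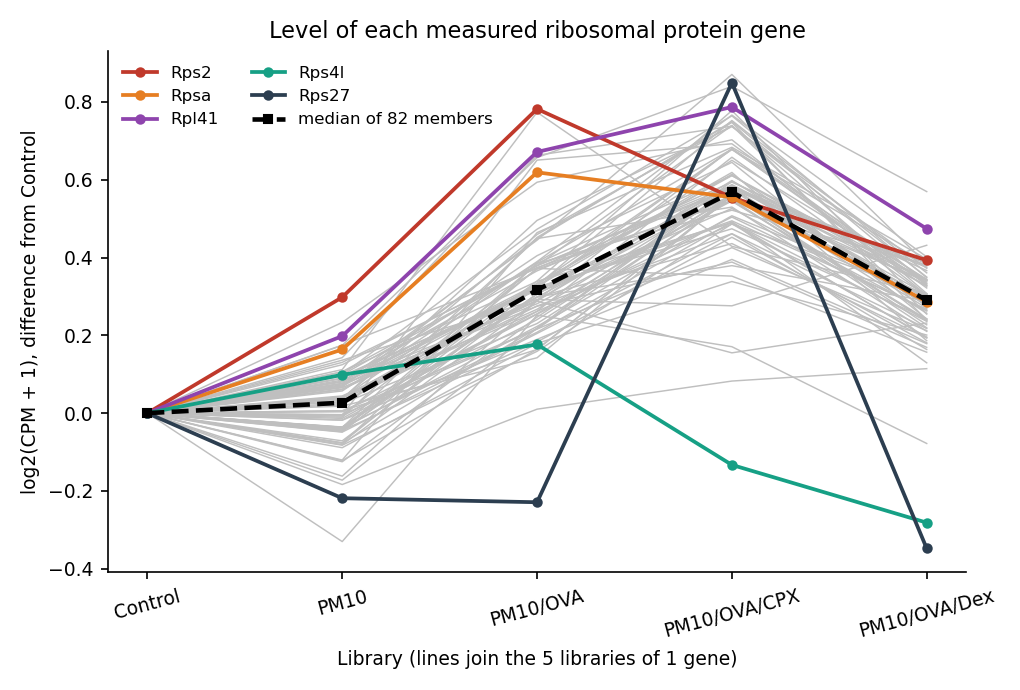
Level of each of the 82 measured ribosomal protein genes in the 5 libraries as log2(CPM + 1) minus its value in control; grey lines are genes, coloured lines 5 named genes and the dashed black line the median of the members. Most lines peak in PM10/OVA/CPX, Rps2 and Rpsa peak in PM10/OVA, and Rps27 (39 counts without CPX, 79 with it) leaves the rest.

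PM10 against control addresses what the particles alone did. The members' levels were close to each other in these libraries: the median log2 ratio was 0.03 (quartiles -0.04 and 0.08), and 47 of 82 members were above 0, where 49.7% of all measured genes were. No member was at least 1.5-fold higher or lower, against 8.02 and 5.89% of all genes. For 29 members the counting interval of the ratio lay above 1 (24.3% of all genes) and for 15 below 1 (22.6%). It lay above 1 for 816 and below 1 for 758 of the 2172 other genes of at least 100 CPM. At a lower threshold of 1.2-fold, chosen after the data were seen, 1 member was higher (19.1% of all genes) and 1 lower (18.2%).

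The member above that threshold was Rps2, a small-subunit protein at the mRNA entry site (GRCm38 chromosome 17, 24718116 to 24721929). It was at 618 CPM in control and 761 in PM10, 1.23-fold higher (1.2 to 1.26). Rps26, which lines the mRNA exit of the small subunit, followed at 306 and 359 CPM (1.18-fold, 1.13 to 1.22). Rpl41 stood at 576 and 661 CPM (1.15-fold, 1.11 to 1.18) and Rpl7a, a large-subunit protein, at 495 and 559 CPM (1.13-fold, 1.09 to 1.17). These are small differences that counting error does not cover, but whether 2 lungs of 1 group would differ as much is not known from these data.

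At the other end, Rpl26 had the lowest log2 ratio, -0.33, on 158 counts in control and 85 in PM10. Rps27 (-0.22) and Rpl30 (-0.18) also had few counts, and the ratio intervals of all 3 reached 1. They are members whose reads largely lie in another row of the table, as described below. Rpl37, a zinc-binding large-subunit protein, was at 179 CPM in control and 159 in PM10, 1.13-fold lower (1.06 to 1.19).

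PM10/OVA against PM10 addresses what the allergen added to the particles. Nearly all members were higher in the PM10/OVA library, each by a small step. The median log2 ratio was 0.28 (quartiles 0.23 and 0.38), or 1.21-fold, where the median of all 14305 genes was 0.00. Of the 82 members, 81 were above 0, against 50.7% of all genes, and the counting interval of the ratio lay above 1 for 78, against 21.4%, and below 1 for none, against 20.9%. The exception to the direction was Rps27 (-0.01).

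The step was too small for most members to pass the threshold of 1.5-fold: 2 members did (2.85% of all genes) and none was that much lower (4.73%). At 1.2-fold there were 46 higher (15.4% of all genes) and none lower (16.7%). The large-subunit median was 0.27 and the small-subunit median 0.33. Members with a pyrimidine run at the start had a median of 0.34 (30 measured) and those without one 0.27 (32). Members with CCGGAAG had a median of 0.37 (23) and those without it 0.26 (39), and for AAGATGG the medians were 0.28 (9) and 0.31 (53). Against control the PM10/OVA medians with and without were 0.35 and 0.31 for the run and 0.37 and 0.31 for CCGGAAG. For PM10/OVA/CPX against PM10/OVA the order was the other way, at 0.24 and 0.26 for both. These medians are a description and were not tested.

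The member furthest above the others with many counts was Rpl22l1, the paralog of Rpl22, at 55.5 CPM in PM10 and 88.0 in PM10/OVA (1.59-fold, 1.44 to 1.74). Rpl37rt had the same log2 ratio, 0.66, on 10 counts in PM10 and 30 in PM10/OVA, too few to place it (2.28-fold, 1.09 to 5.24). Just below the threshold lay Rpl34 and Rpl26, both at 0.58, again on low counts. Among the lowest besides Rps27 were Rps4l (0.08, on 293 and 407 counts) and Rps19bp1 (0.16, on 145 and 214). The ratio intervals of both included 1.

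PM10/OVA against control, which spans particles and allergen together, gave a median log2 ratio of 0.32 (quartiles 0.25 and 0.38), or 1.25-fold. This comparison and the previous one share the PM10/OVA library, and they are not independent. Again 81 of 82 members were above 0 (51.3% of all genes), with Rps27 at -0.23. At least 1.5-fold higher were 8 members, or about as many per gene as among all genes (8.15%), and none was that much lower (7.19%). At 1.2-fold 57 were higher (23.5% of all genes) and none lower (21.6%). The counting interval lay above 1 for 78 (29.6%) and below 1 for none (27.1%). Of the 2172 other genes of at least 100 CPM it lay above 1 for 928 and below 1 for 858.

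The 8 were Rps2 (0.78), Rpl37rt (0.77), Rpl41 (0.67), Rpl36al (0.66), Rps27l (0.66), Rpl22l1 (0.65), Rpsa (0.62) and Rps26 (0.59) on the log2 scale, and the next below the threshold was Rpl35 (0.50). Rpl37rt rested on 12 counts in control and 30 in PM10/OVA. Rps2 was at 618, 761, 1064, 909 and 812 CPM in the 5 libraries, 1.72-fold higher in PM10/OVA than in control (1.68 to 1.76). Rpsa, a small-subunit protein first described as a laminin receptor (chromosome 9, 120127689 to 120132369), was at 828, 928, 1273, 1218 and 1011 CPM, 1.54-fold higher (1.5 to 1.57). Both were already above control in PM10, reached their highest level in PM10/OVA and were lower in the treated libraries.

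Rpl41 (chromosome 10, 128548114 to 128549305) was at 576, 661, 918, 995 and 800 CPM, 1.59-fold higher in PM10/OVA than in control (1.55 to 1.64). Rps26 was at 306, 359, 462, 498 and 377 CPM, 1.51-fold higher (1.46 to 1.57). These differ from Rps2 and Rpsa in that their highest value was in PM10/OVA/CPX, as for most members. At the low end stood, among others, Rpl30 (0.01) and Rpl5 (0.16). Rpl5, which binds 5S ribosomal RNA together with Rpl11, was at 703 CPM in control and 784 in PM10/OVA (1.12-fold, 1.09 to 1.14).

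PM10/OVA/CPX against PM10/OVA addresses the chitinase-1 inhibitor. The members were again mostly higher, here in the treated library: the median log2 ratio was 0.26 (quartiles 0.16 and 0.32), or 1.2-fold, against 0.00 over all genes. Above 0 were 74 of 82 (49.2% of all genes). The counting interval lay above 1 for 70 (17.5%) and below 1 for 4 (20.7%). Of the 2172 other genes of at least 100 CPM it lay above 1 for 510 and below 1 for 893. Only Rps27 was at least 1.5-fold higher (3.03%) and none was that much lower (3.12%), while at 1.2-fold 40 were higher (14.7%) and 2 lower (14.3%). The large-subunit median was 0.21 and the small-subunit median 0.29.

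Rps27 is left aside here because it rests on 39 and 79 counts. The next highest were Rpl35a, Rpl39 and Rps7. Rpl35a, a large-subunit protein mutated in some families with Diamond-Blackfan anaemia, was at 318, 310, 403, 546 and 384 CPM, 1.36-fold higher in PM10/OVA/CPX than in PM10/OVA (1.31 to 1.40). Rpl39, a short protein that lines the exit tunnel of the large subunit, was at 211, 222, 287, 386 and 275 CPM (1.34-fold, 1.29 to 1.40). Rps7, a small-subunit protein, was at 446, 468, 559, 751 and 572 CPM (1.34-fold, 1.30 to 1.38). In each of these the PM10/OVA/CPX library stood well above the other 4 and PM10/OVA/Dex beside PM10/OVA.

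The other 8 members were below 0 with CPX. The lowest 4 were Rpl37rt (-0.34, on 30 and 16 counts, with an interval that reached 1), Rps4l, Rps2 and Rpl7l1, followed by Rpl26 (-0.08), Rpsa (-0.06), Rpl7a (-0.02) and Rps19bp1 (-0.02). The counting interval lay below 1 for Rps4l, Rps2, Rpl7l1 and Rpsa. Rps2 was 1.17-fold lower (1.14 to 1.2), against a small-subunit median of 0.29 on the log2 scale. Rps4l was at 22.6, 24.3, 25.7, 20.5 and 18.4 CPM, 1.25-fold lower with CPX (1.07 to 1.47). Rpl7l1, a relative of Rpl7, was at 72.5, 75.9, 88.7, 80.8 and 85.3 CPM, 1.10-fold lower (1.01 to 1.19), while Rpl7 itself was at 888 CPM in PM10/OVA and 1.22-fold higher with CPX (1.19 to 1.25).

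PM10/OVA/Dex against PM10/OVA addresses the glucocorticoid. The members stayed near their PM10/OVA level: the median log2 ratio was -0.04 (quartiles -0.11 and 0.02), with -0.01 over all genes, and 28 of 82 members were above 0 (48.1% of all genes). None was at least 1.5-fold higher (4.63%) or lower (5.47%). At 1.2-fold 8 were lower (19.7%) and none was higher (17.7%). The counting interval lay below 1 for 35 members (24% of all genes) and above 1 for 11 (22.1%). Of the 2172 other genes of at least 100 CPM it lay below 1 for 793 and above 1 for 809.

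Lowest on the log2 scale were Rpl37rt (-0.47), Rps4l (-0.46), Rps2 (-0.39) and Rpsa (-0.33). Rpl37rt rested on 30 and 13 counts, and its interval reached 1. Rps2 was 1.31-fold lower in PM10/OVA/Dex than in PM10/OVA (1.28 to 1.34) and Rpsa 1.26-fold lower (1.23 to 1.29). Their levels in PM10/OVA/Dex, 812 and 1011 CPM, remained above those in control. Among the highest were Rpl37 (0.17), Rps19bp1 (0.14) and Rps27rt (0.13). Rpl37 was at 208 CPM in PM10/OVA and 234 in PM10/OVA/Dex, 1.12-fold higher (1.07 to 1.18). The PM10/OVA library enters 4 of the 5 comparisons and control 2, so a high value in PM10/OVA alone gives a higher ratio to control and a lower one in the treated libraries.

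Paralogs did not all keep step with the gene they are named after. Rpl22l1 was at 55.7, 55.5, 88.0, 90.6 and 70.2 CPM and Rpl22 at 269, 270, 302, 397 and 317 CPM. From PM10 to PM10/OVA Rpl22l1 was 1.59-fold higher and Rpl22 1.12-fold (1.07 to 1.17), while from PM10/OVA to PM10/OVA/CPX Rpl22l1 was 1.03-fold (0.951 to 1.11) and Rpl22 1.32-fold higher (1.26 to 1.37). The counting intervals of the 2 genes did not overlap in either comparison, with the order of the genes turned around between them.

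Rpl36al (chromosome 12, 69182731 to 69184083) was at 107, 118, 169, 178 and 136 CPM and its X-linked relative Rpl36a at 200, 195, 274, 336 and 236 CPM. With CPX the former was 1.05-fold (0.996 to 1.11) and the latter 1.23-fold higher (1.18 to 1.28). Against PM10 alone both were higher in PM10/OVA, by 1.44-fold (1.35 to 1.53) and 1.41-fold (1.34 to 1.48), with overlapping intervals. Rps4l and the X-linked Rps4x parted in the treated libraries: Rps4x was at 790, 764, 911, 1088 and 885 CPM and 1.19-fold higher with CPX (1.17 to 1.22), where Rps4l was lower.

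Rps27l, a paralog of Rps27 known as a p53 target, was at 56.6, 63.9, 89.8, 102 and 84.4 CPM, 1.59-fold higher in PM10/OVA than in control (1.46 to 1.72). Rps19bp1 was at 10.8, 12.0, 13.5, 13.3 and 15 CPM, and Rps19, the first gene linked to Diamond-Blackfan anaemia, at 351, 333, 459, 504 and 457 CPM. Rps19bp1 thus had its highest value in PM10/OVA/Dex and Rps19 in PM10/OVA/CPX. Without the 9 symbols with a paralog suffix or of another protein, the medians over the remaining 76 members were 0.02, 0.28, 0.32, 0.27 and -0.03 for the 5 comparisons in the order given above.

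Reads of a ribosomal protein gene can also fit its retrocopies, and how the authors' counting treated such reads was not given in the sources used here. A near-identical annotated gene (at least 150 aligned bases at 97% identity or more) was found for 70 of the 85 members, with a median of 4 per member and up to 34 for Rpl21. Such a copy was itself a row of the count table for 17 members. In 78 members the named gene held at least 90% of the counts summed over itself and its counted copies. Most of these had no counted copy and so held all of the sum by definition. The number therefore does not show how reads were shared with copies that were not counted as rows.

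The remaining cases include Rpl37rt, which held 0.557% of the counts it shares with the member Rpl37 (81 against 14452). This pair was not summed. They also include 4 members with a small part of the sum that were summed with their copy. Rps27 held between 0.257 and 0.644% of the counts it shares with Rps27rt on chromosome 9, Rpl26 1.38 to 1.94% of those with Gm15772, Rpl30 2.44 to 3.59% of those with Gm12191 and Rpl34 5.02 to 5.99% of those with the pseudogene Rpl34-ps1. In these 4 the row that carries the gene's own symbol is the minor one. Summed over both rows, Rps27 and Rps27rt were at 656, 601, 778, 980 and 850 CPM. The ratio of this sum was 1.29 for PM10/OVA to PM10 (1.26 to 1.33) and 1.26 for PM10/OVA/CPX to PM10/OVA (1.23 to 1.29). On the log2 scale these were 0.37 and 0.33, beside upper quartiles of the members of 0.38 and 0.32. The Rps27 row alone gave ratios of 0.990 (0.599 to 1.65) and 2.56 (1.73 to 3.87).

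The sums of Rpl34, Rpl26 and Rpl30 with their copies also lay within the range of the members of at least 20 CPM. With CPX their log2 ratios (0.33, 0.40 and 0.39) were above the upper quartile of the members, 0.32. Their ratios of PM10/OVA to PM10 were 1.29 (1.23 to 1.35), 1.21 (1.17 to 1.25) and 1.19 (1.14 to 1.24), and those of PM10/OVA/CPX to PM10/OVA 1.26 (1.22 to 1.31), 1.32 (1.28 to 1.36) and 1.31 (1.27 to 1.36). These pairs were chosen after their counts were seen. With such members summed with their copy, no member was 1.5-fold higher with CPX. The 7 pseudogene rows of the table together held 0.0272 to 0.0441% of the counts of a library, most of them in Rpl34-ps1.

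**Figure D3:**
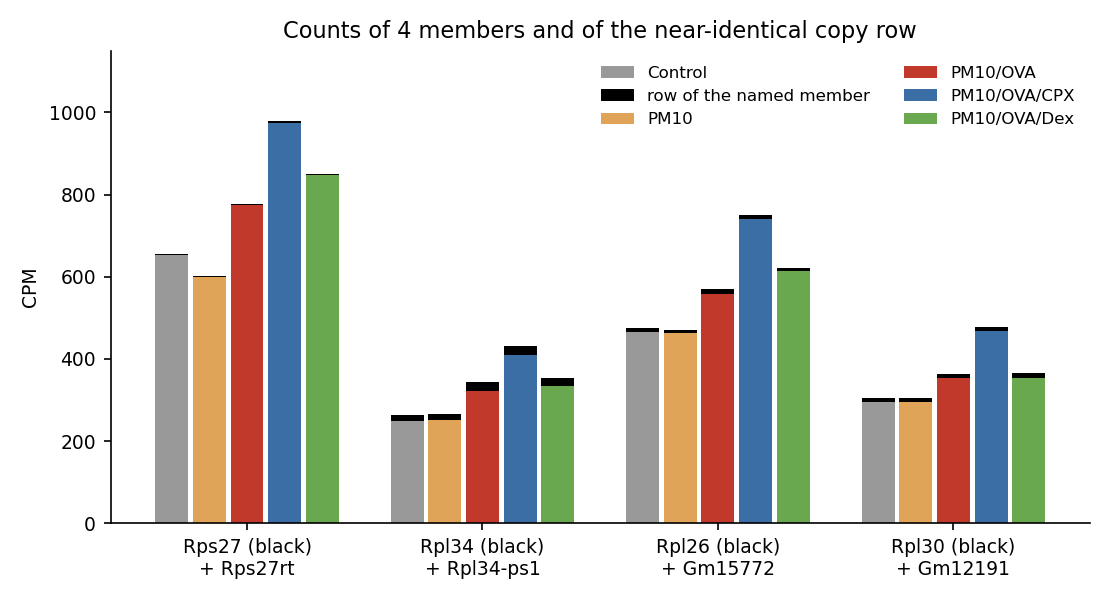
Level (CPM) of 4 ribosomal protein genes and of the near-identical copy row, stacked, in each of the 5 libraries; black is the row with the member's own symbol and colour the copy. The black part is small throughout (0.257 to 5.99% of a bar), and the summed bars are highest in PM10/OVA/CPX for all 4 pairs.

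Members have short transcripts, with a median of 833 bases against 2972 for the other measured genes, and the ratios of other genes also followed transcript length. Among the other genes of up to 750 bases (353 genes) the median log2 ratio of PM10/OVA to PM10 was 0.25, and among those over 5000 bases (2679 genes) it was -0.13. Members of up to 750 bases (34 genes) had a median of 0.37. From 750 to 1000 bases it was 0.19 for 455 other genes and 0.26 for 24 members. For PM10/OVA against control the values up to 750 bases were 0.21 for the other genes and 0.38 for the members. The members thus lay above other genes of their length, by less than they lay above all genes.

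With CPX the trend over the other genes was shallower. Up to 750 bases the median for PM10/OVA/CPX against PM10/OVA was 0.09 for the other genes and 0.29 for the members, and from 750 to 1000 bases 0.08 and 0.26. With Dex the values up to 750 bases were -0.05 and -0.08. For PM10 against control they were -0.01 and 0.03. Restricting both to a mean of at least 100 CPM left 48 other genes and 28 members of up to 750 bases, at 0.29 and 0.35 for PM10/OVA against PM10 and 0.11 and 0.29 for CPX.

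When a smooth trend on transcript length over the other genes was subtracted, the member medians became 0.11 for PM10/OVA against PM10, 0.14 for PM10/OVA against control, 0.18 for CPX and 0.016 for Dex. The member medians for PM10/OVA against PM10 and for CPX, 0.28 and 0.26 without the subtraction, were 0.11 and 0.18 with it, and the Dex median changed its sign. RNA integrity and fragment size were not given in the sources used here, and the part that transcript length plays in the members' differences was not tested beyond these values.

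**Figure D4:**
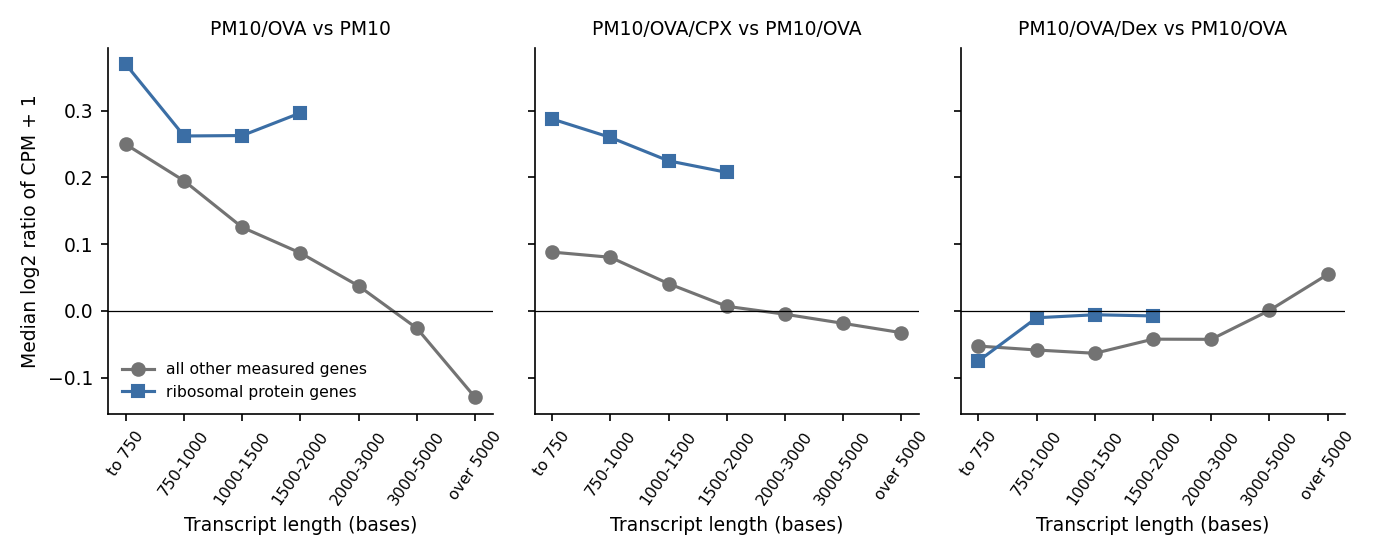
Median log2 ratio (CPM + 1) by transcript length (bases) for ribosomal protein genes (blue squares, groups of at least 5 genes) and all other measured genes (grey circles) in 3 comparisons. The grey line falls from 0.25 to -0.13 in PM10/OVA against PM10 and from 0.09 to -0.03 with CPX, and the blue points lie above it in both.

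Other parts of the translation machinery were followed through 7 lists. The 6 ribosomal genes that the naming rule leaves out (among them Rplp0, Rplp1 and Rplp2 of the stalk, Fau, and Rack1, listed as Gnb2l1) had medians of 0.05, 0.30, 0.32, 0.19 and -0.03 in the order of comparisons above, close to the members. Rplp1 was at 689, 689, 958, 1102 and 857 CPM. Rplp0 was at 753, 885, 1128, 1016 and 879 CPM, so it peaked in PM10/OVA as Rps2 did, 1.5-fold above control (1.46 to 1.53). Rplp2 was at 293, 293, 375, 466 and 365 CPM.

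For the 20 translation factors and related TOP messages the medians were 0.08, 0.09, 0.18, 0.20 and 0.08. They were thus higher with CPX, as the members were, with 16 of 20 above 0, and differed less between PM10/OVA and PM10, with 14 of 20 above 0. Tpt1, a TOP message of a protein linked to growth and allergy, was at 1860, 1695, 1941, 2706 and 2363 CPM, 1.39-fold higher in PM10/OVA/CPX than in PM10/OVA (1.37 to 1.42). Eef1g, a subunit of the elongation factor that recharges eEF1A, was at 306, 334, 435, 405 and 364 CPM and so had the Rps2 pattern.

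The 32 ribosome assembly genes differed from the members with CPX. Their medians were 0.09, 0.24, 0.33, -0.18 and -0.26. In PM10/OVA all 32 were above PM10, but 28 of 32 were lower with CPX than without, where 74 of 82 members were higher, and 30 of 32 were lower with Dex. Fbl, the methyltransferase fibrillarin of the nucleolus, was at 41.7, 46.4, 69.3, 44.8 and 42.4 CPM, 1.55-fold lower with CPX (1.40 to 1.72) and 1.64-fold lower with Dex (1.47 to 1.82). Nhp2, a protein of the RNA-modifying H/ACA particles, was at 21, 30.0, 43.0, 34.7 and 27.4 CPM and Heatr1, needed for ribosomal RNA processing, at 37.3, 42.6, 51.9, 39.1 and 33.4 CPM. All 3 were highest in PM10/OVA and lower in both treated libraries.

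RNA polymerase I genes (15), which make the ribosomal RNA, had medians between 0.05 and 0.11 in all 5 comparisons. The 15 genes of mTOR and Myc control of TOP messages had medians of 0.04, 0.00, 0.04, -0.10 and -0.06. Myc, which drives ribosome production, was at 9.40, 8.70, 14.3, 11.0 and 11.8 CPM, 1.65-fold higher in PM10/OVA than in PM10 (1.30 to 2.10). With CPX the median of these regulators was below 0, unlike that of the members, and RNA levels do not measure the activity of the kinases.

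As comparators with short transcripts, the 77 mitochondrial ribosomal protein genes had medians of 0.00, 0.25, 0.24, 0.01 and -0.17, and the 82 measured respiratory chain genes -0.18, 0.22, 0.08, 0.05 and -0.11. Both lists were above 0 in PM10/OVA against PM10 (72 of 77 and 75 of 82), as the members were. With CPX both medians stayed near 0, with 41 of 77 and 53 of 82 above it, where the member median was 0.26. Mrpl52, a mitochondrial large-subunit gene, was at 30.0, 31.4, 45.9, 38.8 and 34.6 CPM. The muscle forms Cox8b, Cox7a1 and Cox6a2 were 3.27-fold to 4.20-fold lower in PM10 than in control. These lists are described by their counts and medians and were not tested against each other.

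**Figure D5:**
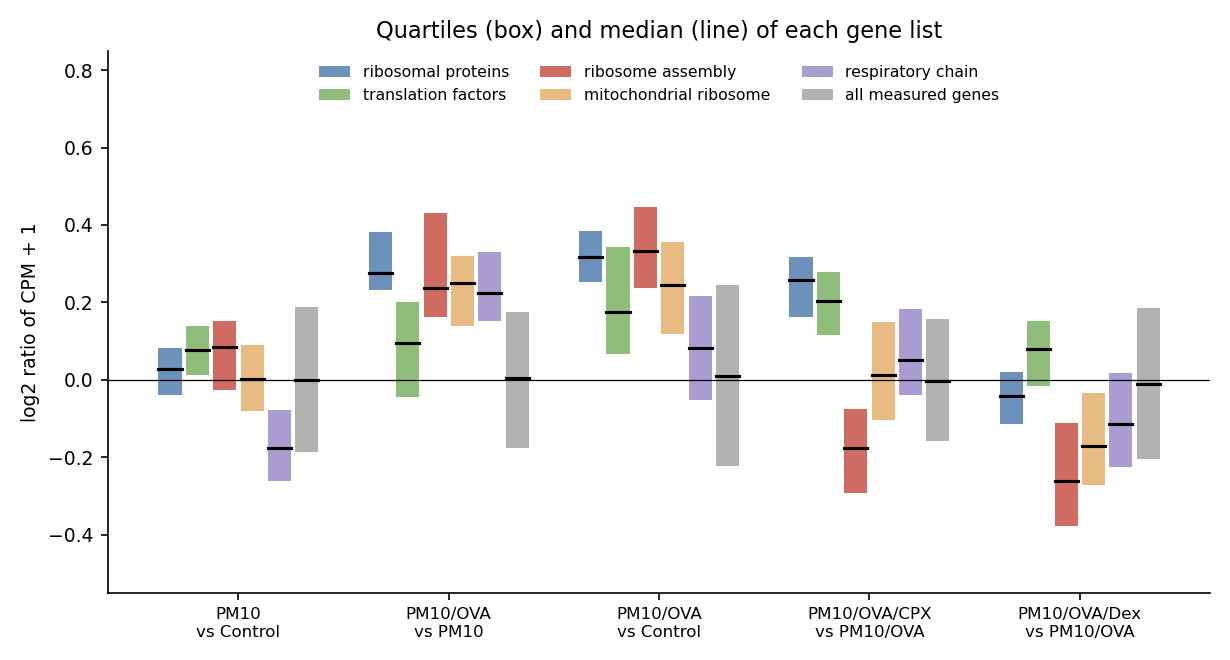
Median (line) and quartiles (box) of the log2 ratio (CPM + 1) for ribosomal protein genes, translation factors, ribosome assembly, mitochondrial ribosome and respiratory chain genes and for all measured genes in the 5 comparisons. With CPX the ribosomal protein box (0.16 to 0.32) lies above 0 and the ribosome assembly box below it (median -0.18).

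Cell type markers also differed between the libraries, and their part in the members' differences was not tested. Summed levels of 10 macrophage markers were 384, 1183, 1034, 985 and 881 CPM, of 9 neutrophil markers 238, 257, 703, 619 and 362 CPM and of 12 cell cycle genes 81.4, 323, 163, 158 and 94.0 CPM. The cell cycle list was thus highest in PM10, where the members were at their control level. The neutrophil sum was highest in PM10/OVA and with CPX remained above control and PM10. Marker by marker, 7 of the 9 were lower with CPX than in PM10/OVA, 3 of them by at least 1.5-fold. The other 2 were higher, 1 of them by at least 1.5-fold, and the median log2 ratio was -0.35. The 7 plasma cell markers summed to 475, 490, 640, 1468 and 863 CPM, with Jchain, the joining chain of secreted antibody, at 49.6, 44.5, 74.4, 942 and 377 CPM, so the sum was highest in PM10/OVA/CPX. Jchain carried the rise of the sum: the other 6 genes summed to 425, 446, 565, 526 and 485 CPM, highest in PM10/OVA. Marker by marker, 3 of the 6 measured ones, Jchain among them, were at least 1.5-fold higher with CPX than in PM10/OVA. The other 3 were below 0, 1 of them by at least 1.2-fold and none by 1.5-fold. The other plasma cell marker of high level, Sdc1, which epithelium also makes, was at 267 CPM in PM10/OVA and 220 with CPX.

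Summed B cell markers (8 genes) were 212, 184, 257, 197 and 124 CPM and T cell markers (10) 158, 173, 169, 164 and 127 CPM. Neither list was highest in PM10/OVA/CPX. Alveolar epithelial markers (10) summed to between 21840 and 26990 CPM, airway epithelial markers (11) to between 16546 and 28983, endothelial markers (8) to between 3994 and 4555 and fibroblast markers (8) to between 3763 and 4517, so the defining markers of the labelled tissue were detected in every library. Among markers of tissues that border the lung, those of heart muscle (14) ran from 281 CPM in PM10/OVA/CPX to 3510 in control. Fat cell markers (8) ran from 60.0 to 560 CPM and cartilage markers (7) from 21.2 to 125, both highest in control, and skeletal muscle markers (10, Myh4 at 0 in all libraries) from 10.6 to 68.0. All 4 of these lists were thus highest in control, and their part in the comparisons with control was not tested.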

How the data were processed

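Whole-lung RNA was sequenced in 5 groups with 1 library each. Per the labels' protocols, RNA was taken up in Trizol and libraries were built with a directional NEBNext Ultra II kit. Reads were aligned with TopHat to mm10, per the submitters' processing notes; the versions, the gene counter, its strand setting and its treatment of multi-mapping reads were not given in the sources used here. Raw whole-number counts per gene symbol were deposited by the authors, with no normalization. Depth was 11993222 to 16929068 counts per library. Every row of the files names a gene, and no row was left out of the library sizes.

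From these counts, TMM factors (edgeR 4.0.16 in R 4.3.3) and CPM were computed, and log2 ratios on CPM + 1 for the 5 comparisons. A gene counted as measured at a mean of at least 1 CPM. Differences of at least 1.5-fold on that scale were counted. Ratio intervals are exact conditional (Clopper-Pearson) 95% intervals and shares have exact binomial ones, both covering counting error only. Without replicates no test was possible. The calculation was tested on simulated data. Gene positions, types and transcript lengths are from GENCODE M21 on GRCm38, near-identical copies were searched with BLAST 2.17.0, and start sequences came from RefSeq (GRCm38.p6).

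The members and gene lists were chosen with earlier results of these data known. Named members are the 4 highest and 4 lowest per comparison and per kb, the 9 paralog or other symbols with their namesakes, those next to the threshold, up to 3 genes per pathway list and the most abundant markers. Some items that this rule names are not reported here. Rps6 and Rpl13a were named in addition, after their values were seen, as typical members. Alternatives covered scaling, pseudocount, filter, membership, threshold and a trend on transcript length.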

Additional observations from a re-analysis of the deposited data

How the results depend on the processing

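Of the results that answer a comparison, the member medians for PM10 against control lay between -0.00 and 0.03 under the 11 alternatives. With library totals only, the medians were 0.26 for PM10/OVA against PM10 and 0.27 against control. After removal of a trend on transcript length they were 0.11, 0.14, 0.18 with CPX and 0.016 with Dex, where the sign changed, and with union exon length, added after seeing the data, 0.19, 0.19, 0.20 and -0.0013. The number of members at least 1.5-fold higher in PM10/OVA than in PM10 (2) became 4 with a pseudocount of 0.25, 1 with a pseudocount of 5, a mean of at least 5 or 20 CPM or core members only, and 0 after either length trend or at 2-fold. Against control (8) it became 5 with core members, 1 and 2 after the length trends and 0 at 2-fold. With CPX (1) it became 0 at a mean of at least 5 or 20 CPM or with copies summed. At the added 1.2-fold threshold the counts were 1 higher and 1 lower (PM10 against control), 46, 57 and 40 higher (PM10/OVA against PM10, against control, and CPX), 2 lower (CPX) and 8 lower (Dex). At 1.5-fold the number lower with Dex (0) became 1 with a pseudocount of 0.25. Core members took 3.57, 3.55, 4.32, 5.13 and 4.20% of counts, and members with pseudogene rows 3.63, 3.61, 4.4, 5.22 and 4.28%. No paired analysis was possible because each group has 1 library, and for the same reason no library could be left out. Members under 20 CPM rest on few counts, and transcript lengths follow 1 annotated transcript per gene, so levels per kb are approximate.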
